A study of Homo sapiens with 4 samples.

Results

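The genes described here are 31 genes of the DNA replication machinery, measured in the human lung adenocarcinoma cell line H358, with and without knockdown of ADAR by shRNA. ADAR is an RNA-editing enzyme that deaminates adenosines of double-stranded transcripts, and an shRNA is a hairpin transcript processed by the cell into a small RNA that lowers its target. The genes were taken by symbol from the platform annotation, which gave them 45 of the 47322 probes of the deposited table. Of these probes 42 were detected on at least 2 of the 4 arrays, and they represented 30 of the 31 genes among 12197 genes tested. GINS1, a subunit of the replicative helicase, had 1 probe, which was not detected on any array.

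Cells transfected with ADAR shRNA were profiled on 2 arrays and cells transfected with a scrambled sequence on the other 2 (Illumina HT-12 BeadChip, total RNA, 1 colour). The shRNA arrays carry the mark "ADAR B" in their titles, and neither the time after transfection nor any selection of transfected cells was given in the sources used here. The design text calls the replicates biological without saying that they were separate cultures. The p-values rest on the spread between 2 arrays of each group, moderated towards the spread over all genes, and may not cover the spread between cultures. The arrays carry no slide or scan information that could be tested as a batch.

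The eukaryotic genome is copied once in each S phase. Origins are marked by the origin recognition complex, on which CDC6 and CDT1 load the MCM2 to MCM7 ring, and CDC45 and the GINS complex turn that ring into an active helicase. Polymerases alpha, delta and epsilon then copy the strands, and the sliding clamp PCNA, which the RFC complex loads, holds delta and epsilon. RPA covers single-stranded DNA, FEN1 and LIG1 join the lagging strand, and CAF-1 places histones on the new DNA. Ribonucleotide reductase, thymidylate synthase and thymidine kinase supply precursors. Many of these genes are transcribed as cells enter S phase, and E2F factors are known regulators of their promoters.

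The 2 groups differed across the whole array. Between 18722 and 19294 probes were detected on the ADAR shRNA arrays, against 20031 to 20901 on the scrambled arrays, and the upper quartiles of raw signal were 92.1 to 94.5 against 115 to 143. Over the 12197 genes the arrays of a group correlated at 0.987 in ADAR shRNA cells and 0.984 in scrambled cells, against 0.765 to 0.795 across groups (Pearson's r over genes, which are not independent replicates). Of 6 epithelial markers, 4 were detected on both ADAR shRNA arrays and all 6 on both scrambled arrays, and their summed raw signal was 2233 to 2505 against 24506 to 25775. EPCAM and CDH1 were the markers not detected in ADAR shRNA cells, nor was NKX2-1, a lung lineage factor that was detected on both scrambled arrays. Of 8 measured alveolar and airway markers, 7 were undetected on both ADAR shRNA arrays and 7 on both scrambled arrays. Of 5 haematopoietic markers, CD68 and CD14 were detected in both groups and PTPRC, CD3E and HBB in neither (summed raw signal 2172 to 2755 against 1122 to 1198). Of 8 fibroblast and endothelial markers, 0 were detected in ADAR shRNA cells and 3 on both scrambled arrays (summed raw signal 427 to 434 against 598 to 676). The part of these differences in the results on replication genes was not tested.

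The targeted gene was lower in the cells labelled ADAR shRNA. Its brightest probe had normalized log2 values of 9.88 and 10.19 on the ADAR shRNA arrays, against 10.89 and 11.23 on the scrambled arrays, and the groups did not overlap. ADAR fell by 1.03 (SE 0.21, adjusted p = 0.00292). Its other detected probe had log2 values of 8.74 and 9.10 on the ADAR shRNA arrays, against 9.38 and 8.83 on the scrambled arrays, which overlapped (log2 difference -0.19, SE 0.25, adjusted p = 0.557 over all probes).

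Of the 30 replication genes tested, 27 fell, 0 rose and 3 did not pass the test, at an adjusted p under 0.05. Of all genes tested, 57.8% changed, 32.2% fell and 25.5% rose under the same rule, so falls were common in this comparison. The median log2 difference of the 30 genes was -1.98, against -0.08 over all genes. At least 2-fold falls were seen in 26 of the 30 (18.3% of all genes) and at least 4-fold falls in 15 (5.53% of all genes). Both ADAR shRNA arrays lay below both scrambled arrays for 29 of the 30, as they did for 43.3% of all genes. CHAF1A is among the 27, the 26 and the 29. It passed the detection filter through the scrambled arrays alone, so its lower values in ADAR shRNA cells were nearly fixed beforehand. These counts describe the genes listed here, which were chosen with results of the same arrays known. In cells measured in bulk, fewer cells in S phase and less transcript per cell cannot be told apart.

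**Figure D1:**
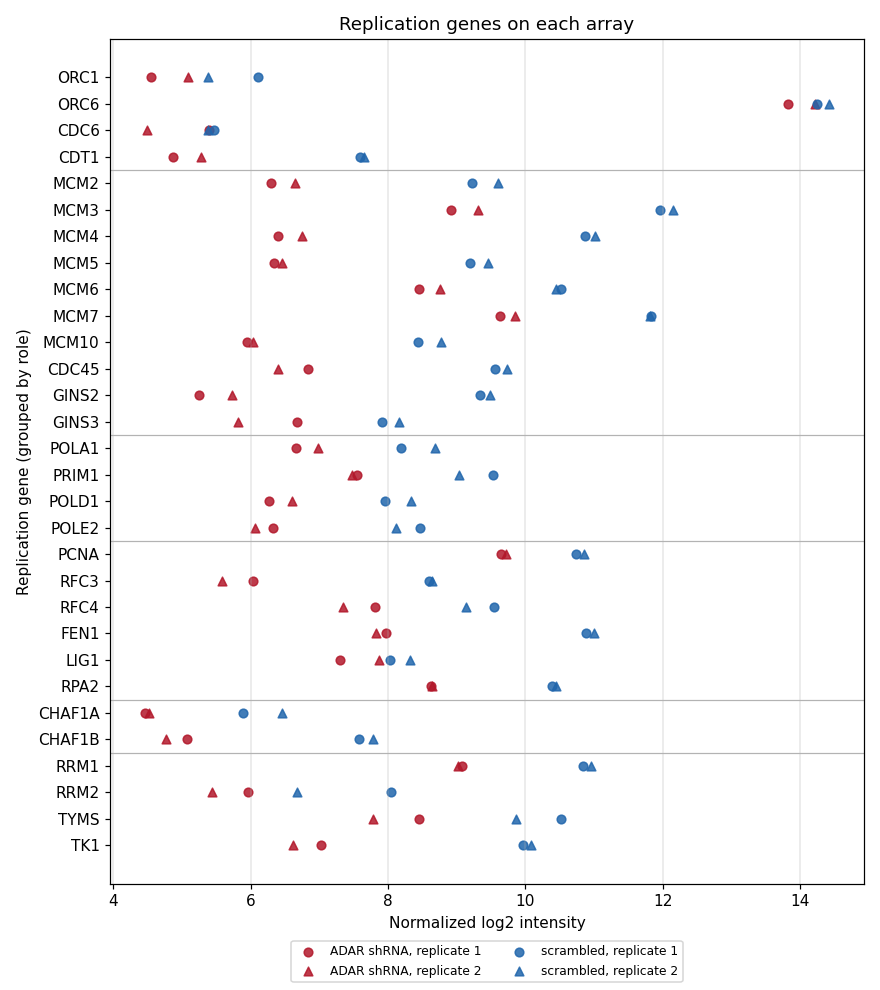
Normalized log2 intensity (x axis) of the 30 replication genes tested (y axis, grouped by role), 1 point for each array. The ADAR shRNA points lie left of the scrambled points for 29 genes, and CDC6 overlaps; positions of different genes are not comparable, since each has its own probe.

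The median log2 difference was not the same in each role. The helicase genes had a median log2 difference of -2.93 (10 tested, all fell), the chromatin assembly genes -2.22 (2 of 2 fell; -2.01 with CHAF1A, which was undetected in ADAR shRNA cells, at its bound), and the nucleotide synthesis genes -1.96 (4 of 4 fell). The clamp, loader and lagging strand genes followed at -1.77 (5 of 6 fell) and the polymerase genes at -1.74 (4 of 4 fell). The origin licensing genes lay nearest to 0 at -0.70 (2 of 4 fell). That median depended on the processing: it was -1.28 (3 of 4 fell) with the mean of all detected probes and -0.38 (2 of 4 fell) with no background correction. The helicase genes had the lowest median and the licensing genes the median nearest 0 in all 16 of the processing settings tried (with the strict detection filter, licensing was ORC6 alone, through its brightest probe), while the middle roles changed places. CDC6 and ORC1 were close to background in scrambled cells too (raw signals of 99 and 80.2, and of 138 and 79.9), so neither could fall far. ORC6 read -0.32 through its brightest probe and -2.95 through its other one. The settings share these arrays and most of these probes, so their agreement does not remove that limit. This order is a description of 2 to 10 genes a role, each seen through its own probe, and no test was made between roles.

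**Figure D2:**
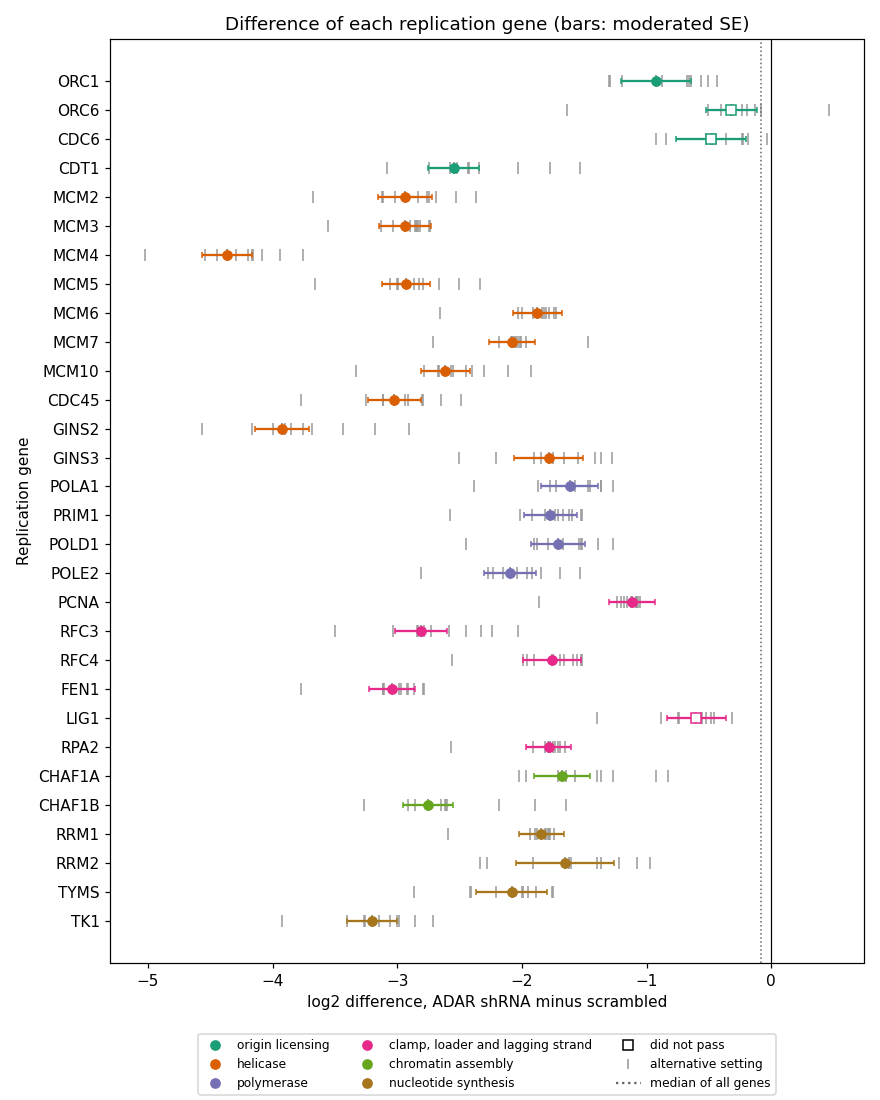
Log2 difference, ADAR shRNA minus scrambled (x axis), of each replication gene (y axis, coloured by role), with its moderated SE as a bar. Filled circles fell, open squares did not pass, grey ticks give the value under each alternative setting, and the dotted line marks the median of all genes at -0.08; the helicase genes reach -4.37 (MCM4) and the licensing genes except CDT1 lie above -1.

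Sequences upstream of the start sites are shown for 6 of the genes, because members that moved together can be compared there for shared motifs. The RefSeq table (GRCh38.p14) held the region from 250 bases before to 50 bases after the start site for 28 of the 31 genes, all but MCM4, MCM5 and RPA2. An E2F-type motif was searched on both strands as TTTCCCGC, TTTCGCGC, TTTGCCGC or TTTGGCGC, and overlapping matches were counted once. Of the 28 regions 15 held such a match (53.6%), against 5.44% of the regions of the genes tested that the table holds and 3.33% of all regions of that length in the table. The CCAAT motif, searched as CCAAT on both strands, was found in 16 of the 28 (57.1%), against 37.3% and 35.7%. The sequences below run from 200 bases before the start site to the first 20 bases from it, 5′ to 3′ on the gene's strand, with E2F-type matches in capitals. Of the 4 ring subunits searched, MCM3, MCM6 and MCM7 had 2 separate matches each, GINS2 fell the most of the genes shown, TK1 fell strongly without a match, and CDC6 holds a match and did not pass.
MCM3 (chr6:52284723-52284942, - strand): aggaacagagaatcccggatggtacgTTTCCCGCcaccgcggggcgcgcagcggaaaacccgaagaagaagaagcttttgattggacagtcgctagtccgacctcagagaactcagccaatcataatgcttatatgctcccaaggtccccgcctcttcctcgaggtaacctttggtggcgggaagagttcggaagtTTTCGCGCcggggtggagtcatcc
MCM6 (chr2:135876424-135876643, - strand): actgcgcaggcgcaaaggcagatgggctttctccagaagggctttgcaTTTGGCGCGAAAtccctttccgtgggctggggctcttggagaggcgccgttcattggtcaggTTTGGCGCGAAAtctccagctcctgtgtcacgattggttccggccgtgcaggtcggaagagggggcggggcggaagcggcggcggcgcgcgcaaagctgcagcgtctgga
MCM7 (chr7:100101378-100101597, - strand): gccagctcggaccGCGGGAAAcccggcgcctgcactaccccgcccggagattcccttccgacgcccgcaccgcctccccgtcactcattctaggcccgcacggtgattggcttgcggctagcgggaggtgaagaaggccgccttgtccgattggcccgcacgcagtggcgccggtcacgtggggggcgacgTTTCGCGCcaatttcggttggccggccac
GINS2 (chr16:85688935-85689154, - strand): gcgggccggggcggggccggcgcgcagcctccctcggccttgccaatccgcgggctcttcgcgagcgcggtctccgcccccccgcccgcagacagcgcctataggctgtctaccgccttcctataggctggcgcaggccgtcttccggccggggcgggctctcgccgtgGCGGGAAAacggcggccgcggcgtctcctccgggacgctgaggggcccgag
TK1 (chr17:78187185-78187404, - strand): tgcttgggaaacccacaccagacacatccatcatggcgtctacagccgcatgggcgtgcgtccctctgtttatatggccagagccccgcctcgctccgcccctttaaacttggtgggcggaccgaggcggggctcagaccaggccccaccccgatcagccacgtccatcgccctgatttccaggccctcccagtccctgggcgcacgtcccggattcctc
CDC6 (chr17:40287679-40287898, + strand): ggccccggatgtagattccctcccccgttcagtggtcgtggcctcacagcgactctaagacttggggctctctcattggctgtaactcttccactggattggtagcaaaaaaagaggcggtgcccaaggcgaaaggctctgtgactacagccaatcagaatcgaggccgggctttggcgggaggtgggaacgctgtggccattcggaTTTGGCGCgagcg
Genes with and without a match overlapped in the size of their differences. The 14 tested genes with a match had a median log2 difference of -2.08 and a range from -3.93 to -0.48, and the 13 without had a median of -1.77 and a range from -3.20 to -0.32. TK1, FEN1 and CDC45 fell more than 8-fold without these letters in the region searched, and CDC6 and LIG1 held them without passing. For CDC45 and ORC1, both without a match, the region searched lay inside the span of the gene. The sequence before the outermost start of these genes was not searched. A match is a string of letters, not a bound site.

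Within the MCM ring, MCM4 stood apart from its partners. MCM4 had log2 values of 6.40 and 6.74 on the ADAR shRNA arrays, against 10.86 and 11.01 on the scrambled arrays, the widest gap among the genes described here. It fell 20.6-fold (log2 difference -4.37, SE 0.20, adjusted p = 6.28e-07), and 0.533% of all genes had a log2 difference as low or lower. A second MCM4 probe had raw signals of 70.1 and 79.1 in ADAR shRNA cells, against 1175 and 836 in scrambled cells, and it fell by 3.96 (SE 0.22, adjusted p = 8.93e-06). The raw signals of the brightest probe were 104 and 118 in ADAR shRNA cells, against 2659 and 2346 in scrambled cells.

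MCM2, MCM3 and MCM5 formed a close group. MCM2 had log2 values of 6.30 and 6.65 in ADAR shRNA cells, against 9.22 and 9.60 in scrambled cells. MCM3 had log2 values of 8.92 and 9.31 in ADAR shRNA cells, against 11.95 and 12.15 in scrambled cells. MCM5 had log2 values of 6.33 and 6.46 in ADAR shRNA cells, against 9.19 and 9.46 in scrambled cells. In each of these ring subunits the groups lay far apart, and the arrays of a group differed by less than 0.5. The fitted differences were -2.94 for MCM2 (SE 0.22, adjusted p = 7.28e-06), -2.93 for MCM3 (SE 0.21, adjusted p = 5.72e-06) and -2.93 for MCM5 (SE 0.19, adjusted p = 3.81e-06). A second MCM3 probe fell by 2.56 (SE 0.24, adjusted p = 8.84e-05).

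MCM6 and MCM7 fell less than the other ring subunits. MCM6 had log2 values of 8.46 and 8.76 on the ADAR shRNA arrays, against 10.52 and 10.45 on the scrambled arrays, and it fell by 1.88 (SE 0.19, adjusted p = 5.15e-05). MCM7 had log2 values of 9.63 and 9.85 on the ADAR shRNA arrays, against 11.83 and 11.81 on the scrambled arrays, and it fell by 2.08 (SE 0.19, adjusted p = 2.23e-05). Neither overlapped. The other MCM7 probes were undetected in ADAR shRNA cells and dim in scrambled cells. One had raw signals of 60.5 and 51.8 in ADAR shRNA cells, against 279 and 96.8 in scrambled cells, and it was at least 3.16-fold lower (log2 difference -1.94, SE 0.43, adjusted p = 0.0067). The other had raw signals of 61.2 and 57.8 in ADAR shRNA cells, against 91.8 and 69.2 in scrambled cells, and it did not pass (log2 difference -0.39, SE 0.20, adjusted p = 0.139).

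The partners that complete the helicase fell as well. CDC45, which joins the ring at origin firing, had log2 values of 6.84 and 6.39 on the ADAR shRNA arrays, against 9.55 and 9.73 on the scrambled arrays. It fell 8.14-fold (log2 difference -3.03, SE 0.21, adjusted p = 5.48e-06). MCM10, which is needed for the helicase to start unwinding, had log2 values of 5.94 and 6.04 on the ADAR shRNA arrays, against 8.44 and 8.77 on the scrambled arrays, and it fell by 2.61 (SE 0.20, adjusted p = 8.13e-06). Its second probe was undetected on both ADAR shRNA arrays and at least 3.2-fold lower there (log2 means 4.40 ± 0.15 in ADAR shRNA cells and 6.59 ± 0.01 in scrambled cells, SD, n = 2 each, adjusted p = 6.67e-05).

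Of the GINS subunits, GINS2 and GINS3 were measured among the members. GINS2 had log2 values of 5.25 and 5.73 on the ADAR shRNA arrays, against 9.34 and 9.49 on the scrambled arrays. Its raw signals were 69.1 and 78.6 in ADAR shRNA cells, against 1011 and 887 in scrambled cells, and it fell 15.2-fold (log2 difference -3.93, SE 0.22, adjusted p = 1.52e-06). The ADAR shRNA values lay near background, so the size of this fall depends on the background correction. GINS2 read -3.44 on the authors' processed values and -2.91 with no correction, past the threshold in both. GINS3 differed more between the ADAR shRNA arrays, with log2 values of 6.67 and 5.82 on the ADAR shRNA arrays, against 7.91 and 8.15 on the scrambled arrays, and it fell by 1.79 (SE 0.28, adjusted p = 0.000568). The groups of both genes were apart, and the fall of GINS3 ranged from -2.21 to -1.36 when 1 array was left out.

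Origin licensing was the role with mixed results. CDT1, the loading factor that geminin inhibits, had log2 values of 4.88 and 5.28 on the ADAR shRNA arrays, against 7.60 and 7.65 on the scrambled arrays. Both scrambled arrays and ADAR shRNA replicate 2 detected it, ADAR shRNA replicate 1 did not, and it fell by 2.55 (SE 0.20, adjusted p = 1.16e-05). Such a size against background depends on the background correction, and CDT1 read -2.03 on the authors' processed values and -1.54 with no correction, past the threshold in both. ORC1, the large subunit of the origin recognition complex, had log2 values of 4.55 and 5.08 on the ADAR shRNA arrays, against 6.11 and 5.38 on the scrambled arrays, close to background in both groups. ADAR shRNA replicate 1 did not detect it, and its fitted log2 difference was -0.93 (SE 0.28, adjusted p = 0.0195). ORC1 did not pass without scrambled replicate 1 (-0.56, adjusted p = 0.138), without ADAR shRNA replicate 1 (-0.66, adjusted p = 0.118), under median scaling (-0.64, adjusted p = 0.0572) or when undetected probes were kept (-0.93, adjusted p = 0.0758).

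CDC6, the ATPase that loads the ring together with CDT1, was the 1 gene whose groups overlapped. Its raw signals were 72.1 and 52.1 in ADAR shRNA cells, against 99 and 80.2 in scrambled cells, and its log2 values were 5.39 and 4.50 on the ADAR shRNA arrays, against 5.47 and 5.39 on the scrambled arrays. Both scrambled arrays and ADAR shRNA replicate 1 lay together, and ADAR shRNA replicate 2 lay lower and was undetected. The scrambled values were close to background, so a large fall could not have been seen. Its log2 difference was -0.48 (SE 0.28, adjusted p = 0.169), and it passed without ADAR shRNA replicate 1 (-0.93, adjusted p = 0.0121) and when arrays were left unnormalized (-0.84, adjusted p = 0.035).

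ORC6, the small subunit of the origin recognition complex, gave different results through its 2 probes. The brightest probe, ILMN_2215061, had raw signals of 15318 and 19207 in ADAR shRNA cells, against 19452 and 19770.2 in scrambled cells, and 0.131% of all probes were as bright or brighter. Its log2 values were 13.82 and 14.21 on the ADAR shRNA arrays, against 14.25 and 14.42 on the scrambled arrays, and ORC6 through it differed by -0.32 (SE 0.21, adjusted p = 0.213). The other probe, ILMN_1731070, had raw signals of 77.8 and 68.3 in ADAR shRNA cells, against 648 and 381 in scrambled cells, and it fell by 2.95 (SE 0.23, adjusted p = 3.97e-05). The groups were apart on both probes. Under median scaling the brightest probe turned to 0.46, adjusted p = 0.0996. The mean of both probes gave -1.64, adjusted p = 4.82e-05. The gene is counted above by the brightest probe, as not passed.

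**Figure D3:**
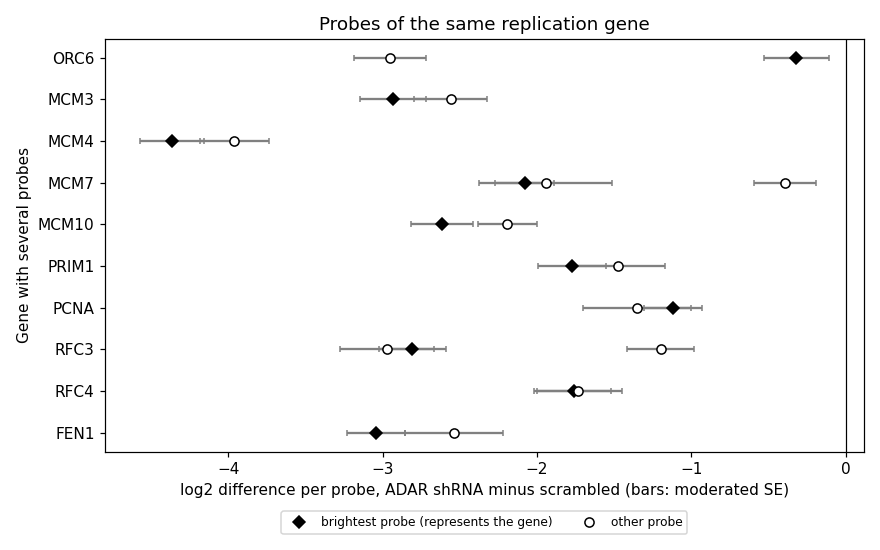
Log2 difference, ADAR shRNA minus scrambled (x axis, bars are moderated SEs), of every detected probe of the 10 replication genes with more than 1 such probe (y axis). Diamonds mark the brightest probe, which represents the gene; the ORC6 probes read -0.32 and -2.95, and all 22 probes lie below 0.

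Beyond ORC6 and the dim MCM7 probe, probes of 1 gene gave the same call. The 10 genes with several detected probes had 22 in all, of which 20 fell with adjustment over all probes that passed the filter. On all 22 both ADAR shRNA arrays lay below both scrambled arrays, as they did for 43.3% of all genes by their brightest probe. The dimmer MCM7 probes and the second probes of MCM10 and PCNA were detected on the scrambled arrays alone. They passed the filter through that group, so lower values in ADAR shRNA cells were nearly fixed beforehand. Of the 3 RFC3 probes, the brightest was detected on all 4 arrays and the others on 1 of 2 ADAR shRNA arrays, where they lay near background, so the sizes of their falls cannot be compared.

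All 4 polymerase genes fell, by amounts within 0.5 of each other. POLA1, the catalytic subunit of polymerase alpha, had log2 values of 6.66 and 6.98 in ADAR shRNA cells, against 8.19 and 8.69 in scrambled cells, and it fell by 1.62 (SE 0.23, adjusted p = 0.000341). PRIM1, the catalytic subunit of primase, had log2 values of 7.55 and 7.47 in ADAR shRNA cells, against 9.53 and 9.04 in scrambled cells, and it fell by 1.77 (SE 0.21, adjusted p = 0.000132). POLD1, the catalytic subunit of polymerase delta, had log2 values of 6.27 and 6.61 in ADAR shRNA cells, against 7.96 and 8.34 in scrambled cells. It fell by 1.71 (SE 0.22, adjusted p = 0.000173). POLE2, an accessory subunit of polymerase epsilon, had log2 values of 6.33 and 6.06 in ADAR shRNA cells, against 8.47 and 8.11 in scrambled cells, and it fell by 2.09 (SE 0.21, adjusted p = 4.12e-05). None of these groups overlapped.

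The clamp and its loader did not fall alike. PCNA, the clamp, was among the smallest falls that passed, with log2 values of 9.64 and 9.72 on the ADAR shRNA arrays, against 10.73 and 10.86 on the scrambled arrays, tight within each group. It fell 2.17-fold (log2 difference -1.12, SE 0.18, adjusted p = 0.000803), and 16% of all genes had a log2 difference as low or lower. Its second detected probe was undetected in ADAR shRNA cells and at least 2.08-fold lower (adjusted p = 0.0134), and the third was not detected. The loader subunit RFC3 had log2 values of 6.04 and 5.58 on the ADAR shRNA arrays, against 8.59 and 8.65 on the scrambled arrays, and it fell by 2.81 (SE 0.21, adjusted p = 7.65e-06). RFC4, another loader subunit, had log2 values of 7.81 and 7.35 on the ADAR shRNA arrays, against 9.54 and 9.14 on the scrambled arrays, and it fell by 1.76 (SE 0.23, adjusted p = 0.000222).

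On the lagging strand, FEN1 and LIG1 gave different results. FEN1, the flap endonuclease, had log2 values of 7.97 and 7.82 on the ADAR shRNA arrays, against 10.88 and 11.00 on the scrambled arrays, and it fell 8.24-fold (log2 difference -3.04, SE 0.18, adjusted p = 2.50e-06). LIG1, the ligase that seals Okazaki fragments, had log2 values of 7.30 and 7.86 on the ADAR shRNA arrays, against 8.04 and 8.32 on the scrambled arrays, which lay close but did not overlap. Its log2 difference of -0.60 (SE 0.23, adjusted p = 0.0536) did not pass. It passed under 10 of its 15 alternatives, among them median scaling (-0.74, adjusted p = 0.0174) and the authors' processed values (-0.55, adjusted p = 0.0364). RPA2, the middle subunit of the single-strand binding protein, had log2 values of 8.63 and 8.64 on the ADAR shRNA arrays, against 10.38 and 10.45 on the scrambled arrays, with almost no spread within a group, and it fell by 1.78 (SE 0.18, adjusted p = 4.49e-05).

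Both measured subunits of CAF-1, the histone chaperone that follows the fork, were at or near background in ADAR shRNA cells. CHAF1A had raw signals of 52 and 52.9 in ADAR shRNA cells, against 123 and 133 in scrambled cells, and it was not detected on either ADAR shRNA array. It was at least 2.39-fold lower there with the background correction used here (log2 means 4.49 ± 0.05 in ADAR shRNA cells and 6.17 ± 0.40 in scrambled cells, SD, n = 2 each, adjusted p = 0.000251). CHAF1A passed the detection filter through the scrambled arrays alone, so this p-value adds no support for the fall. With no background correction its log2 difference was -0.83, a smaller fall than that bound. CHAF1B had raw signals of 66.1 and 58.6 in ADAR shRNA cells, against 325 and 289 in scrambled cells, with detection on 1 of 2 ADAR shRNA arrays. It fell by 2.76 (SE 0.20, adjusted p = 6.64e-06), and it read -2.19 on the authors' processed values and -1.65 with no background correction.

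All 4 nucleotide synthesis genes fell, TK1 and RRM1 with close replicates and RRM2 and TYMS with wider spread. TK1, the thymidine kinase of the salvage pathway, had log2 values of 7.02 and 6.62 on the ADAR shRNA arrays, against 9.97 and 10.08 on the scrambled arrays. It fell 9.2-fold (log2 difference -3.20, SE 0.20, adjusted p = 3.30e-06). RRM1, the large subunit of ribonucleotide reductase, had log2 values of 9.08 and 9.02 on the ADAR shRNA arrays, against 10.84 and 10.95 on the scrambled arrays, and it fell by 1.85 (SE 0.18, adjusted p = 3.87e-05). RRM2, the small subunit made in S phase, had raw signals of 87.1 and 71.5 in ADAR shRNA cells, against 438 and 149.8 in scrambled cells. The scrambled arrays were far apart for RRM2, and its log2 values were 5.96 and 5.45 on the ADAR shRNA arrays, against 8.04 and 6.67 on the scrambled arrays. RRM2 fell by 1.65 (SE 0.39, adjusted p = 0.00596), and it read -0.97, adjusted p = 0.0249 without scrambled replicate 1 and -2.34, adjusted p = 0.000868 without scrambled replicate 2. TYMS, which makes thymidylate, had log2 values of 8.45 and 7.78 on the ADAR shRNA arrays, against 10.52 and 9.87 on the scrambled arrays, and it fell by 2.08 (SE 0.29, adjusted p = 0.000284).

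A wider list of 52 other replication genes, 46 of them tested, moved mostly in the same direction, with exceptions. Of the 46, 31 fell, 4 rose and 11 did not pass, against 32.2% and 25.5% of all genes that fell and rose. Their median log2 difference was -1.27, or -1.17 with genes undetected in a group at their bounds. MTBP and DNA2, both counted as falls, were undetected on both ADAR shRNA arrays. They passed the detection filter through the scrambled arrays alone, so their falls were nearly fixed beforehand. By fitted difference the first 3 falls were those of DSCC1, a subunit of an alternative clamp loader, GINS4, the remaining GINS subunit, and RECQL4, a helicase of replication initiation. DSCC1 had log2 values of 5.71 and 5.77 on the ADAR shRNA arrays, against 9.09 and 9.27 on the scrambled arrays, and it fell by 3.44 (SE 0.18, adjusted p = 1.40e-06). GINS4 was detected by ADAR shRNA replicate 2 and not by replicate 1, and it fell by 2.96 (SE 0.23, adjusted p = 8.35e-06). Its place in that order rests on a value at background, since it read -2.38 on the authors' processed values. RECQL4 had log2 values of 5.36 and 5.07 on the ADAR shRNA arrays, against 7.93 and 8.40 on the scrambled arrays, and it fell by 2.94 (SE 0.22, adjusted p = 8.15e-06). DSCC1 and RECQL4 lay near background in ADAR shRNA cells too. Under the alternative settings DSCC1 ranged from -4.13 to -2.57 and RECQL4 from -3.54 to -1.92. POLA2 also fell by 2.94, so the place of RECQL4 in that order is not firm.

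The largest rises in that list were in RRM2B, POLD4 and ASF1A. RRM2B, the small reductase subunit that p53 can induce, had log2 values of 6.49 and 5.90 on the ADAR shRNA arrays, against 5.51 and 4.74 on the scrambled arrays. Scrambled replicate 2 did not detect it, and it rose by 1.07 (SE 0.29, adjusted p = 0.0125), while RRM1 and RRM2 fell. A second RRM2B probe was detected on both ADAR shRNA arrays and on neither scrambled array, with raw signals of 89.1 and 96.6 in ADAR shRNA cells, against 54.1 and 47.3 in scrambled cells. It was at least 2.53-fold higher (adjusted p = 0.000195 over all probes). That probe passed the detection filter through the ADAR shRNA arrays alone, so higher values there were nearly fixed beforehand and its p-value adds no support. Through its brightest probe RRM2B did not pass without scrambled replicate 2 (0.68, adjusted p = 0.0976), without ADAR shRNA replicate 1 (0.77, adjusted p = 0.0789), when undetected probes were kept (1.07, adjusted p = 0.0602) or when arrays were left unnormalized (0.55, adjusted p = 0.243). POLD4, the smallest subunit of polymerase delta, had log2 values of 7.83 and 7.59 on the ADAR shRNA arrays, against 6.64 and 6.72 on the scrambled arrays, and it rose by 1.03 (SE 0.19, adjusted p = 0.00156). ASF1A, a histone chaperone, had log2 values of 7.85 and 7.77 on the ADAR shRNA arrays, against 7.04 and 6.79 on the scrambled arrays, and it rose by 0.89 (SE 0.19, adjusted p = 0.00347). Without normalization neither POLD4 (0.29, adjusted p = 0.28) nor ASF1A (0.15, adjusted p = 0.625) passed.

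**Figure D4:**
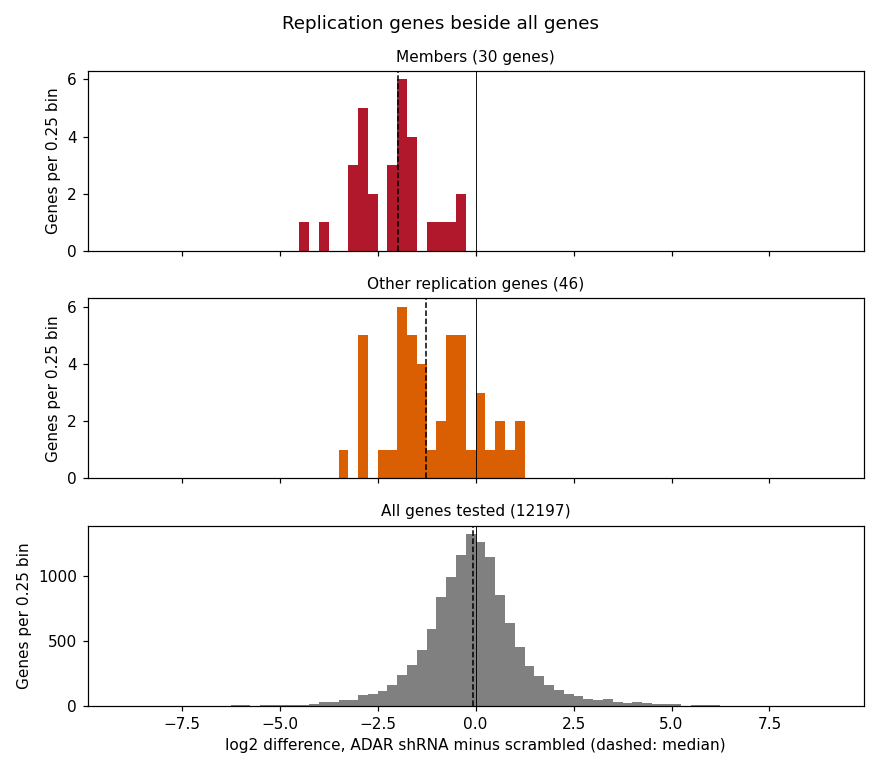
Number of genes (y axis, in bins of 0.25) by log2 difference, ADAR shRNA minus scrambled (x axis), for the 30 replication genes described here, the 46 other replication genes and all 12197 genes tested. Dashed lines mark the medians at -1.98, -1.27 and -0.08; no member lies above 0.

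With both lists joined, the genes were counted by complex, beside the 32.2% of all genes that fell and the 25.5% that rose. These groupings follow known complex membership and were made after the values were seen. In the MCM ring 6 of 6 subunits fell, and of CDC45 with the GINS subunits 4 of 4 tested fell. Of polymerase alpha with primase 3 of 3 tested subunits fell (median -1.77), and of polymerase epsilon 4 of 4 fell (median -1.86). Polymerase delta had 2 subunits that fell and 2 that rose. POLD1 and POLD3 had log2 differences of -1.71 and -1.60, and POLD2 and POLD4 of 0.61 and 1.03 (adjusted p = 0.0421 for POLD2). With adjustment over all probes neither detected POLD2 probe passed. The brightest had adjusted p = 0.0583, and the other, whose groups overlapped, read 0.50 (SE 0.42, adjusted p = 0.354). The rise of POLD2 did not pass without scrambled replicate 2 (0.35, adjusted p = 0.234), without ADAR shRNA replicate 1 (0.50, adjusted p = 0.174), without ADAR shRNA replicate 2 (0.72, adjusted p = 0.0631) or under median scaling (0.43, adjusted p = 0.129), and without normalization POLD2 read -0.23, adjusted p = 0.529. Of the clamp loader 4 of 5 subunits fell, and RFC2 did not pass (-0.33, SE 0.44, adjusted p = 0.542). Its raw signals were 106 and 92.2 in ADAR shRNA cells, against 307 and 96.7 in scrambled cells, and it read 0.50, adjusted p = 0.116 without scrambled replicate 1 and -1.17, adjusted p = 0.00701 without scrambled replicate 2. Of RPA 2 of 3 subunits fell, and RPA1 did not pass (-0.41, SE 0.19, adjusted p = 0.0993), though it fell under 4 of its 15 alternatives, median scaling among them (-0.59, adjusted p = 0.0318), and another RPA1 probe fell (-0.62, SE 0.21, adjusted p = 0.0396 over all probes). In the origin recognition complex 2 of 6 fell, a share near that of all genes, 4 did not pass, and the median was -0.40. That share depends on the probe and the setting. ORC6 is counted as not passed by its brightest probe, while its other probe fell by 2.95 (SE 0.23, adjusted p = 3.97e-05 over all probes). ORC1, counted as fallen, did not pass under 4 of its 14 alternatives. No complex was tested against another.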

How the data were processed

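Expression was measured in 2 arrays of ADAR shRNA cells and 2 of scrambled cells. Per the file headers, the authors deposited for each of 47322 probes the mean intensity of its beads (linear, not normalized), how many beads there were, their standard error, and a detection p-value from negative controls. Values came from GenomeStudio, per the submitters' processing notes, with no version given in the sources used here. The authors also deposited processed intensity values, which share their quantiles across arrays and reach below 0 (lowest -21.8), and these served as an alternative.

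Here background was removed from the intensities by normexp, driven by the detection p-values (limma 3.58.1, R 4.3.3; offset 16), and the log2 values were quantile normalized. Probes with detection p under 0.05 on at least 2 of 4 arrays (21263) were kept. Of all probes 30113 had 1 symbol in the platform annotation, 8 had several and 17201 were not listed, and each of the 12197 named genes was represented by its brightest probe. Groups were compared with lmFit and eBayes (2 residual and 6.83 prior degrees of freedom), 2-sided, with Benjamini-Hochberg adjustment over all genes, and single probes with adjustment over all probes kept; log2 differences are ADAR shRNA minus scrambled. A probe undetected on both arrays of a group has a bound, "at least", which holds for this background correction and offset and sets the brighter group's mean against the higher of the lowest detected value and its own. With 2 arrays a group an exact permutation test cannot go below p = 0.333. Alternatives were background correction, offset, normalization, detection filter, variance model, probe choice, replicate block and leaving out each array. The fit was tested on simulated data. Arrays of a group differed by more than bead error on 18.7% of probes in ADAR shRNA cells and 26.5% in scrambled cells, so no pair held the same readings. All 31 members and the 52 other replication genes, of which the 3 largest falls and 3 largest rises were to be named, were chosen with earlier results of these data known.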

Additional observations from a re-analysis of the deposited data

How the results depend on the processing

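The 27 falls among the 30 replication genes became 23 of 24 with the strict filter (every array detecting the probe, p under 0.01), and 26 to 29 under the other alternatives, and 0 genes rose under any. Over all 444 values of single members under the alternatives, 426 kept their direction and side of the threshold, 4 lost the call, 13 gained it and 1, the ORC6 value of 0.46 under median scaling, changed sign. The lost calls are all of ORC1, and the gained ones of LIG1, CDC6 and ORC6, given above; the causes were not tested. The median of the members, -1.98, was -1.65 with no background correction and -2.69 without normalization. There the median over the 12197 genes moved to -0.68, and the members' median minus it was -2.01 (-1.90 in the fit reported). Leaving out 1 array gave medians from -2.18 to -1.91. Without normalization 6415 genes fell and 1377 rose (17.7% of changed genes rose, against 44.2% in the fit reported), and with the strict detection filter, which leaves 8459 genes, 2533 fell. Of the other replication genes 0 rose without normalization, 2 when undetected probes were kept, and 2 to 5 when 1 array was left out, the 2 coming without scrambled replicate 2 and without ADAR shRNA replicate 1. POLD2 read -0.23 without normalization, and RFC2 ranged from -1.17 to 0.50 when 1 array was left out. Replicate numbers are shared by the groups, but nothing says that they pair the samples (correlation of same-numbered deviations over genes 0.106). With the replicate block 28 members fell and 0 rose, 32 other replication genes fell and 5 rose, 7488 genes changed, and ADAR read -1.03. Signal over background limits CDC6, ORC1, CHAF1A, CHAF1B, CDT1 and GINS2, whose ADAR shRNA values lie near or under the detection limit. Other dim genes also depended on the background correction. With none, RFC3 read -2.03 and MCM10 -1.93, against -2.81 and -2.61 in the fit reported.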

Other observations

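PCLAF and MCM8, both chosen after their values were seen, repeated the pattern of ORC6. PCLAF encodes a PCNA-binding protein. Its brightest probe had raw signals of 18745 and 19129.9 in ADAR shRNA cells, against 19924 and 20158 in scrambled cells, as bright as the top 0.104% of probes, and differed by -0.22 (SE 0.19, adjusted p = 0.363). Its second probe had raw signals of 332 and 302 in ADAR shRNA cells, against 3304 and 2570.0 in scrambled cells, and it fell by 2.63 (SE 0.19, adjusted p = 2.46e-05). MCM8, a relative of the ring subunits that works in recombination, had a bright probe with raw signals of 3246 and 4342 in ADAR shRNA cells, against 4078 and 4446 in scrambled cells and a log2 difference of 0.25 (SE 0.25, adjusted p = 0.437). Its second detected probe had raw signals of 90.6 and 84.8 in ADAR shRNA cells, against 326 and 241 in scrambled cells, and it fell by 1.52 (SE 0.19, adjusted p = 0.00037). In all 3 genes the brighter probe did not pass and the dimmer one fell, with adjustment over all probes, and a count by brightest probe lists them as not passed.

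Probes also disagreed the other way. Of 14 other replication genes with several detected probes, 7 had the same call on each. For ORC5, POLD2 and RFC2 among these, that call was that no probe passed. In MCM8, PCLAF and RPA1 the brightest probe did not pass and another fell, and in DONSON, RFC5 and TOP1 the brightest fell and another did not pass. The dimmer RFC5 probe, detected on 1 array of each group, read -0.08, SE 0.25, adjusted p = 0.82, against -2.15, SE 0.23, adjusted p = 0.000186 for the brightest. DUT, which encodes dUTPase, had opposite calls. Its brightest probe had raw signals of 167 and 164 in ADAR shRNA cells, against 621 and 645 in scrambled cells, and it fell by 1.38 (SE 0.21, adjusted p = 0.00113). A second DUT probe fell by 1.19 (SE 0.19, adjusted p = 0.00141), and the third rose by 1.17 (SE 0.20, adjusted p = 0.00171), with raw signals of 152 and 135 in ADAR shRNA cells, against 122 and 107 in scrambled cells. RFC5 and DUT are counted above as fallen.

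The scrambled arrays differed from each other on some of these probes. Over the 42 detected probes of the members, 8 differed by more than 0.5 on the log2 scale between the ADAR shRNA arrays and 11 between the scrambled arrays (19% and 26.2%), against 12% and 12.5% of all genes. These shares are not alike, since all genes were counted by their brightest probe and the members by every detected probe, dim ones included. Of the 11 in scrambled cells, replicate 1 was higher on 9. The direction was not counted over all genes, and scrambled replicate 1 was the brighter array before normalization (upper quartile of raw signal 143 against 115). The gap was not shared by all probes of a gene. The brighter FEN1 probe read 10.88 and 11.00 on the scrambled arrays, and the dimmer one 8.94 and 7.94. The widest gap, 1.51, was on a dim MCM7 probe whose brighter partner read 11.83 and 11.81.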
